A study of Homo sapiens with 15 samples.

Results

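Antisense RNAs are transcripts read from the strand opposite another gene. The 106 antisense genes described here are those that the deposited annotation types as antisense, that had a mean of at least 100 raw counts over 15 libraries, and that are not GAS5, ZFAS1 or a gene named SNHG (hosts of small nucleolar RNAs). They were 106 of 5583 antisense genes and of 58735 genes in all, and 4 further antisense genes at the count threshold were left out by name. The members were chosen by their raw counts in these libraries, so the levels are a description and not a finding. AL355488.1 (100 counts), MSC-AS1 (100.2) and AC064807.1 (100.4) lay just inside the threshold, and AL590666.2 (98.1), LINC01137 (95) and SREBF2-AS1 (95) just outside it. All 106 passed the filter on low counts. In raw counts, 86 members were at the threshold in every group and 20 were below it in at least 1 group. MSC-AS1 reached 162.3 and 157.7 in the groups with MCL and 50.7 to 66 in the others, so it is a member through the groups where it was high. For 5 members the mean fell under the threshold when 1 group was left out: MSC-AS1 (84.7 without MCL and 85.8 without both drugs), DNM3OS (96.6 without both drugs), AC109460.2 (98.7 without both drugs), AC064807.1 (95.7 without ruxolitinib) and AL355488.1 (97.2 without the untreated group and 96.0 without ruxolitinib).

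The libraries measured RNA of UKE-1, an established human myeloid line that grew out of a myeloproliferative neoplasm and is labelled as wild-type haematopoietic cells. There were 5 groups of 3 libraries: untreated cells, cells given the inflammatory cytokine TNF-α, and cells given TNF-α and then MCL, ruxolitinib, or the 2 drugs combined. MCL is taken as micheliolide, a sesquiterpene lactone that the series title names as a covalent binder of STAT3 and STAT5, and ruxolitinib inhibits the kinases JAK1 and JAK2. RNA was taken 3 h after treatment. The sources used here give no drug dose and no length for the TNF-α step, and do not say if a group's 3 libraries were separate cultures. A p-value then measures only how these libraries spread, which may be technical, and a line is 1 source of cells.

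Library totals ran from 15476399 to 18035604 counts, and the 106 members held 0.179% to 0.195% of them. Of the markers examined, those of blood cells were all present, with GATA1 the lowest at 8.25 to 19.1 CPM (for these markers, counts scaled by library totals). Elsewhere CPM are TMM-scaled counts, on 1 scale for all libraries. EPCAM, KRT19 and MS4A1 were at 0. The endothelial gene CDH5 was at 160.2 to 262.3 CPM and the keratins KRT8 and KRT18 at 41.0 to 104.1 CPM, which go against a plain blood profile. The T cell genes CD3E and CD3D, at 4.78 to 8.65 and 5.72 to 14.4 CPM, were also present in every library. The part of all these genes in the results was not tested.

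Many antisense RNAs start near the promoter of the gene on the other strand and share its open chromatin, and others lie inside a gene or run into its far end. Some are known to act on the opposite gene in the same locus, some act elsewhere as long non-coding RNAs, and some are the primary transcripts of microRNAs (miRNAs). KCNQ1OT1, which silences its imprinted neighbours, and DLEU2, the host of the miR-15a and miR-16-1 genes, are textbook examples, and both were among the members. In the files, 101 members had a partner, here a tested gene on the opposite strand that overlaps by at least 1 base or starts divergently within 2000 bases. There were 100 distinct partners, 98 of them protein coding. By position, 36 members overlapped the partner head to head (at the 5′ ends), 24 tail to tail (at the 3′ ends), 24 lay inside the partner, 10 contained it and 7 were divergent without overlap. LINC01426, AL034397.3, AC124798.1, AL157895.1 and ZSCAN16-AS1 had no partner.

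Reads of overlapping genes on opposite strands can mix. The sources used here do not say if the counting used the strand. The spans of 94 members overlap a tested opposite gene, and in those stretches the reads of the 2 strands cannot be told apart. In exons, 75 members shared bases with an exon on the opposite strand and 31 shared none; the median share of a member's exon bases was 4.06% and the highest, that of TSPOAP1-AS1, 61.3%. Of those named here, the ones that shared none were AC004687.1, AC005288.1, AC064807.1, AC093673.1, AC137932.1, AL049840.1, AL118506.1, AL355488.1, AL356275.2, AP001625.2, DLX6-AS1, DNM3OS, GATA2-AS1, HSPC324, NRAV, SH3PXD2A-AS1, TAPT1-AS1, TMCC1-AS1, TRG-AS1, ZNF213-AS1 and the 5 without a partner.

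Of the members, 7 spanned 12 miRNA genes, so that the member's reads come from a transcript that can be the precursor. The mature sequences of the hosts the results turn on are shown because they tell which miRNAs lie in members that changed and in members that did not; they are RefSeq sequences (GRCh38.p14), 5′ to 3′, with the seed (bases 2 to 8) in capitals. DNM3OS (minus strand of chromosome 1) holds MIR199A2 and MIR214 in its exons, AC020916.1 (minus strand of chromosome 19) MIR23A, MIR27A and MIR24-2, AC004687.1 (minus strand of chromosome 17) MIR142, AL034397.3 (plus strand of chromosome X) MIR223, and DLEU2 (minus strand of chromosome 13) MIR15A at an exon boundary and MIR16-1 in an intron.
hsa-miR-199a-5p: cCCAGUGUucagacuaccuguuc
hsa-miR-199a-3p: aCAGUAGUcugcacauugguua
hsa-miR-214-3p: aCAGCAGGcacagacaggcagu
hsa-miR-23a-3p: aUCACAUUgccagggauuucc
hsa-miR-27a-3p: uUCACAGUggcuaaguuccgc
hsa-miR-24-3p: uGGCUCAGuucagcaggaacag
hsa-miR-142-5p: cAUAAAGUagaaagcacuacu
hsa-miR-142-3p: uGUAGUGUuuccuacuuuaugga
hsa-miR-223-3p: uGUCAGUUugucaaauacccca
hsa-miR-15a-5p: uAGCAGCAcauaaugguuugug
hsa-miR-16-5p: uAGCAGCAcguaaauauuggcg
Among them miR-15a-5p and miR-16-5p share the seed AGCAGCA, and the other 9 have seeds of their own. The miRNA genes themselves had at most 2 counts in any library, so mature miRNAs were not measured here.

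Promoter windows of 300 bases (250 before to 50 after the RefSeq start) were found for 48 of the members. Some of these starts are not those of the counted genes. They lay 33727 bases apart for DHRS4-AS1, 1956 for THUMPD3-AS1, 785 for GABPB1-AS1, 763 for TSPEAR-AS1 and 647 for NOP14-AS1. For the 3 windows shown they lay 0 to 20 bases apart. The windows of 3 head-to-head members that fell together with their partners under both drugs are shown. These members start 1392, 2259 and 3973 bases from the start of the partner. The 3 windows were chosen after values were seen, where 18 head-to-head pairs passed in the same direction with both drugs. They are GRCh38.p14, 5′ to 3′ on the member's strand: TNFRSF14-AS1 chr1:2556962-2557261 (minus strand), LOXL1-AS1 chr15:73928199-73928498 (minus strand) and GATA2-AS1 chr3:128488953-128489252 (plus strand). Capitals mark matches on either strand to a short form of the NF-kB motif, GGG and CC with any 5 letters between them; overlapping matches run together.
TNFRSF14-AS1: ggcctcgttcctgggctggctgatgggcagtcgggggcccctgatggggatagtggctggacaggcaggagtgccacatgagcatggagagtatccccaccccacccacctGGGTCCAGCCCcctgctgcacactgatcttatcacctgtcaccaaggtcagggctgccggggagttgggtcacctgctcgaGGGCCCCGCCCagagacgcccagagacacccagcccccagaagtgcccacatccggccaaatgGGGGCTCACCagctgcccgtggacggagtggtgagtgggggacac
LOXL1-AS1: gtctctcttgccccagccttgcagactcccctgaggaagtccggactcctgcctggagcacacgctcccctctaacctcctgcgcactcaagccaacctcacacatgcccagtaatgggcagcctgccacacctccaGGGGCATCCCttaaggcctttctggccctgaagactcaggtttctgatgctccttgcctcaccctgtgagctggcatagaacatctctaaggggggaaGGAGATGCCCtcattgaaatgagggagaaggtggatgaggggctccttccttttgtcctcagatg
GATA2-AS1: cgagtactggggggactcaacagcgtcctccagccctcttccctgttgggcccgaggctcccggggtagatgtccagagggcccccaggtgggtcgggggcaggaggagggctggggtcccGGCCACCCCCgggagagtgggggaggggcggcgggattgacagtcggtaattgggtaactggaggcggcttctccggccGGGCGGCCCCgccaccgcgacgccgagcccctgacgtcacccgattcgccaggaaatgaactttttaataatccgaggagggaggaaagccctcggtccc
These letters occurred in 66.7% of the 48 member windows and in 58.7% of all 35116 windows. The STAT letters TTCNNNGAA were in 6.25% against 7.66%, the interferon-response letters (GAAA, any 2 letters, GAAA) in 4.17% against 3.57%, the antioxidant-response letters TGACNNNGC in 12.5% against 13.3%, and the AP-1 letters TGANTCA in 4.17% against 7.71%. All were searched on both strands. Of the 5 motifs, only the NF-kB letters were found in the 3 windows shown, which says only that those letters are not there.

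The levels below are a description. Members needed a mean of at least 100 raw counts, while partners only had to pass the filter on low counts. This choice bears on which gene of a pair is higher. Per kilobase of gene length, the median of the 101 members with a partner was 3.79 CPM per kb against 8.20 for the partners. The partner was higher in 63 of 101 pairs. The order differed by position. Head-to-head members were lower than their partners in 29 of 36 pairs (medians of 3.30 and 12.3 CPM per kb). Members that contain the partner were lower in 2 of 10 (1.96 and 0.493), with partners as low as 0.104 (TRPA1). Members inside a gene were at a median of 5.74 CPM per kb with partners at 4.16, tail-to-tail members at 3.58 with partners at 11.1, and divergent members at 4.32 with partners at 13.3. FGD5-AS1 was the highest member at 37.7 CPM per kb, followed by AC099850.3 (30.4), AC004687.1 (23.8), AC005288.1 (23.1), AP001625.2 (23.0) and AC093673.1 (20.5). AC005288.1 and AC099850.3 did not pass the test in any of the 4 comparisons below. Scaled by library totals, AC005288.1 passed with both drugs (0.23 on the log2 scale, edgeR adjusted p = 0.0168). Length counts the union of exons as deposited, so an intron-rich gene and a short one are on the same scale.

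**Figure D1:**
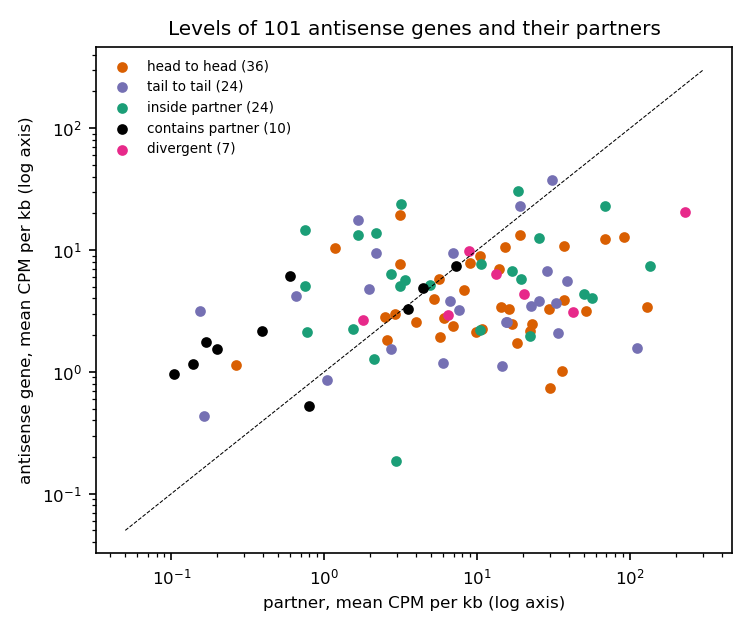
Mean level of each of 101 antisense genes (vertical axis, CPM per kb, log axis) against its partner (horizontal axis, CPM per kb, log axis), coloured by position, with the line of equal level. Points of head-to-head pairs lie mostly right of the line, where the partner is higher, and 8 of 10 members that contain their partner lie left of it.

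TNF-α moved 30 members: 18 rose and 12 fell (edgeR quasi-likelihood test, adjusted p under 0.05 over all 16146 tested genes, here and below). These are 28.3% of the members beside 26.6% of all tested genes, and 17% against 14.1% for a rise. The median log2 change was 0.04 over the members and 0.00 over all genes. A rise of at least 2-fold was reached by 1 of 106 members, AL138724.1, and by 595 (3.69%) of 16146 tested genes. In these bulk libraries, fewer cells of a kind and less RNA per cell cannot be told apart. Members named as changing most were picked from those whose libraries did not overlap between the 2 groups. Non-overlap is therefore a rule of choice for them and adds no support. With TNF-α it held for 40 of 106 members and for 6266 of 16146 tested genes.

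AL138724.1 (chr6:17706257-17707344, plus strand) overlaps the start of NUP153, a nucleoporin of the nuclear pore basket, head to head. It was at 4.74, 4.17 and 2.80 CPM in untreated libraries and at 7.89, 9.01 and 8.26 with TNF-α, and the groups did not overlap. The log2 change was 1.11 ± 0.15 (SE, n = 3 and 3; edgeR adjusted p = 7.67e-09). NUP153 rose by 0.41 ± 0.04 on the log2 scale, and the level of the member relative to the partner rose by 0.70 ± 0.15 (limma adjusted p = 0.000378). This pair shares exon bases over 51.3% of the member, so reads of either strand could be counted there. The part of such reads in these values was not tested.

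AC020916.1 (chr19:13823880-13842928, minus strand), whose exon spans the miR-23a, miR-27a and miR-24-2 genes shown above, rose from 12.2, 10.4 and 11.4 CPM to 20.3, 20.5 and 17.4 CPM. The groups did not overlap, and the log2 change was 0.77 ± 0.11 (edgeR adjusted p = 4.74e-08). Its tail-to-tail partner ZSWIM4, a gene with a SWIM zinc finger, went from 0.624, 1.44 and 1.43 CPM to 6.05, 4.93 and 6.15 CPM, a log2 change of 2.27 ± 0.22. The member therefore fell relative to its partner by 1.49 on the log2 scale (SE 0.23, limma adjusted p = 2.7e-06), the strongest such fall with TNF-α. It stayed near the TNF-α level with the drugs, at 14.5 to 19.8 CPM with MCL, 14.4 to 19.0 with ruxolitinib and 16.1 to 18.8 with both.

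The other members that rose most with TNF-α lie in varied positions. THUMPD3-AS1 was at 28.9, 29 and 28.8 CPM without TNF-α and at 47.9, 45.4 and 41.9 CPM with it. Its change of 0.64 ± 0.06 had no counterpart in THUMPD3, a gene for a tRNA-modifying enzyme, whose log2 change was -0.12 ± 0.07 (edgeR adjusted p = 0.185), and the ratio rose by 0.76 ± 0.08 (limma adjusted p = 1.42e-10). AL049840.1, inside the kinesin light chain gene KLC1 without shared exon bases, rose by 0.69 ± 0.15 beside 0.50 ± 0.06 for KLC1. TNFRSF14-AS1 rose by 0.65 ± 0.10 beside 0.46 ± 0.05 for TNFRSF14, the receptor HVEM. RUSC1-AS1 (0.57 ± 0.13), AC073957.3 (0.55 ± 0.14) and AC018653.3 (0.51 ± 0.12) also rose, and their partners FDPS, GET4 and CLSTN3 changed by 0.12 ± 0.05, 0.51 ± 0.12 and 0.28 ± 0.05, of which the change of FDPS did not pass. C1RL-AS1, at 31.2, 31.7 and 28.9 CPM before and 41.9, 39.4 and 38.6 CPM after, is among the pairs whose ratio rose.

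DNM3OS (chr1:172138397-172144840, minus strand), the host of miR-199a-2 and miR-214, fell most with TNF-α. It was at 7.61, 8.06 and 6.97 CPM in untreated libraries and at 5.79, 3.96 and 3.54 CPM with TNF-α, with no overlap. The log2 change was -0.77 ± 0.15 (edgeR adjusted p = 4.57e-05). DNM3, the dynamin gene it lies inside, changed by 0.11 ± 0.10 (adjusted p = 0.465), and no exon base is shared. AC004865.2 opposite the transcription factor gene TFAP2E (-0.46 ± 0.09), SH3PXD2A-AS1 inside SH3PXD2A, a podosome scaffold gene (-0.42 ± 0.09), TRG-AS1 in the T cell receptor gamma locus (-0.39 ± 0.08) and AL365181.3 inside the brevican gene BCAN (-0.31 ± 0.06) fell as well. Calls of lower level for VPS9D1-AS1 (-0.35), TMCC1-AS1 (-0.32) and ZNF213-AS1 (-0.31) were lost when 1 library was left out. VPS9D1-AS1 lost it without any 1 of untreated replicates 1, 2 and 3 or TNF-α replicates 1 and 3 (edgeR adjusted p = 0.0564 to 0.13). TMCC1-AS1 did so without untreated replicate 2 (0.0813), and ZNF213-AS1 without untreated replicate 2 or 3 or TNF-α replicate 2 or 3 (0.0827 to 0.143). VPS9D1-AS1 also missed the threshold in DESeq2's Wald test (0.0598), and ZNF213-AS1 in edgeR with no filter on low counts (0.0525).

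**Figure D2:**
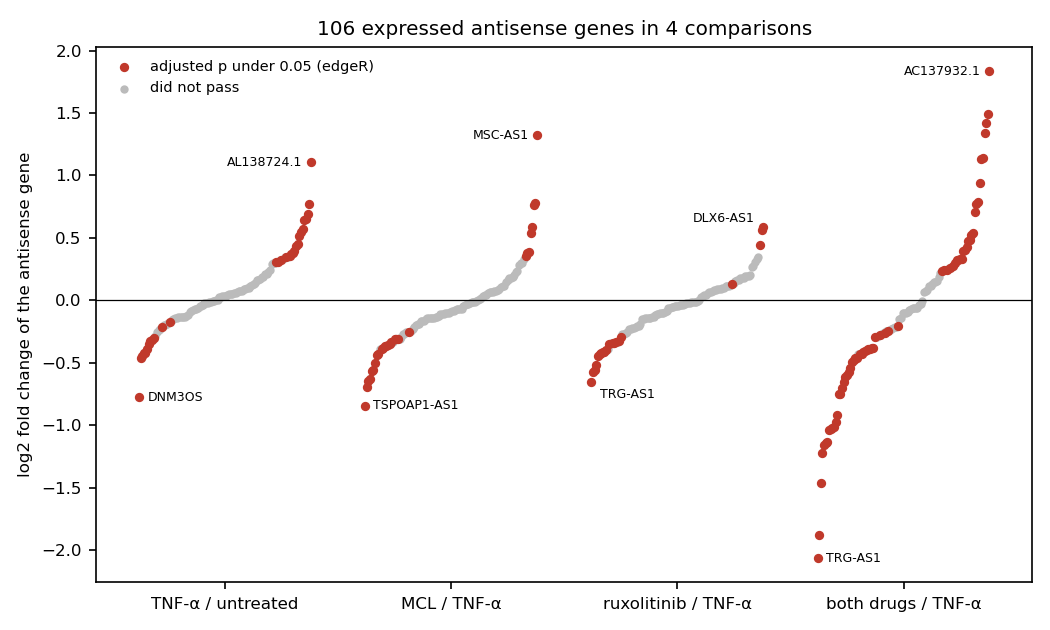
Log2 fold change (vertical axis) of each of the 106 antisense genes, ranked within 4 comparisons (horizontal axis), red where edgeR's adjusted p was under 0.05. The gene with the strongest change that passed in each direction is labelled, and changes with both drugs span from -2.06 to 1.83, beyond those with either drug.

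MCL lowered more members than it raised: 20 fell and 8 rose against TNF-α alone, 26.4% of the members beside 26% of all tested genes (a fall in 18.9% against 15.1%, a rise in 7.55% against 10.9%). Scaled by library totals and not by TMM (edgeR's main scaling), 16 were lower and 11 higher. The median log2 change was -0.09 over the members and -0.02 over all genes. All drug comparisons use the same TNF-α libraries, so their values are set side by side and no overlap between them is counted.

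MSC-AS1 (chr8:71828167-72118393, plus strand) had the highest change. It was at 3.68, 4.14 and 4.22 CPM with TNF-α and at 9.85, 10.3 and 10.01 CPM with MCL added, with 8.98, 9.28 and 8.24 CPM under both drugs and 3.10, 3.49 and 2.63 CPM with ruxolitinib. The log2 changes were 1.32 ± 0.15, 1.13 ± 0.15 and -0.39 ± 0.18 in that order, the last not passing (edgeR adjusted p = 0.134). Because the groups with MCL brought this gene over the count threshold, these values are a description. TRPA1, the electrophile-gated ion channel gene that it contains, was at 0.240 to 0.559 CPM with TNF-α, 1.00 to 1.30 with MCL and 0.928 to 1.62 with both, at log2 changes of 1.47 ± 0.45 with MCL and 1.62 ± 0.44 with both. Their ratio did not change in a way that passed (0.01 ± 0.42 with MCL, limma adjusted p = 0.996), and 22.2% of the exon bases of MSC-AS1 lie on opposite exons.

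AL138724.1, at 7.89 to 9.01 CPM with TNF-α, rose again to 13.7, 17.2 and 12.5 CPM with MCL (log2 change 0.78 ± 0.12, edgeR adjusted p = 5.67e-07). NUP153 changed by 0.01 ± 0.04, so the ratio rose by 0.76 ± 0.15 (limma adjusted p = 0.000153). DNM3OS returned to 7.67, 7.18 and 7.66 CPM with MCL, above all 3 libraries with TNF-α, a log2 change of 0.77 ± 0.15 (adjusted p = 7.47e-05). DNM3 fell by 0.36 on the log2 scale (SE 0.10, adjusted p = 0.00409) and the ratio rose by 1.13 ± 0.17. This was the 1 pair in which both genes passed in opposite directions with MCL.

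FBXL19-AS1 (0.59 ± 0.14) and AC091729.3 (0.54 ± 0.13) rose with MCL together with the partners whose start they overlap, FBXL19 (0.17 ± 0.04), an F-box gene, and ZFAND2A (0.60 ± 0.10), a stress-induced proteasome cofactor gene. AL365181.3 rose from 44.4, 45.5 and 45.2 CPM to 59.8, 54.3 and 62.2 CPM, 0.39 ± 0.06 on the log2 scale. The calls for AC074117.1 (0.36) and DLX6-AS1 (0.38) were lost without single libraries. AC074117.1 lost it without MCL replicate 3 (edgeR adjusted p = 0.0726), and DLX6-AS1 without TNF-α replicate 2 or 3 or MCL replicate 1 or 3 (0.0695 to 0.243). DLX6-AS1 also missed the threshold in DESeq2's Wald test (0.0614).

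TSPOAP1-AS1 and LOXL1-AS1 fell most with MCL. TSPOAP1-AS1 was at 17.2, 15.4 and 14.4 CPM with TNF-α and at 9.79, 8.23 and 8.03 CPM with MCL, a log2 change of -0.85 ± 0.12 (edgeR adjusted p = 2.14e-08). LOXL1-AS1 went from 71.7, 83.6 and 79.4 CPM to 47.2, 48.2 and 49.6 CPM, -0.70 ± 0.06 (adjusted p = 2.48e-16). In both, every library with MCL lay below every library with TNF-α alone. LOXL1, which encodes an elastin cross-linking enzyme and starts 2259 bases from the start of LOXL1-AS1, fell by 0.54 on the log2 scale (SE 0.05). AC073957.3 (-0.64 ± 0.14), TNFRSF14-AS1 (-0.63 ± 0.10), TRG-AS1 (-0.56 ± 0.09) and NIFK-AS1 (-0.44) fell too. The calls for HSPC324 (-0.56 ± 0.15; without MCL replicate 1, adjusted p = 0.0536) and TAPT1-AS1 (-0.50 ± 0.15; without TNF-α replicate 1 or 2, 0.056 and 0.0512) rested on single libraries.

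Ruxolitinib changed the fewest members: 4 rose and 16 fell, 18.9% beside 15.7% of all genes (a fall in 15.1% against 10.6%, a rise in 3.77% against 5.15%). The median log2 change was -0.04 over the members and -0.01 over all genes. TRG-AS1 fell most. It was at 25.9, 25.6 and 27.3 CPM with TNF-α and at 17.5, 17.1 and 15.5 CPM with ruxolitinib, without overlap, a log2 change of -0.66 ± 0.09 (edgeR adjusted p = 2.82e-08). AL365181.3, which rose with MCL, was at 33.6, 28 and 29.4 CPM with ruxolitinib, -0.57 ± 0.07 (adjusted p = 5.65e-10), and BCAN fell by 0.42 on the log2 scale (SE 0.12).

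Further members that fell with ruxolitinib were TAPT1-AS1 (-0.55 ± 0.15), SLC25A25-AS1 (-0.52 ± 0.12), CARD8-AS1 (-0.45 ± 0.10), SH3PXD2A-AS1 (-0.43 ± 0.10) and AL135960.1 (-0.42 ± 0.09). Their partners moved in different ways. CARD8, an inflammasome sensor gene, fell by 0.69 (SE 0.04) and TAPT1 by 0.49 (SE 0.04), TAL1, a transcription factor of blood stem and erythroid cells, by 0.34 (SE 0.03), while SH3PXD2A rose by 0.13 ± 0.05 and SLC25A25 changed by -0.14 ± 0.10 without passing. RNASEH1-AS1 (-0.42) lost its call without any 1 of TNF-α replicates 1 and 2 and ruxolitinib replicates 1 and 2 (edgeR adjusted p = 0.102 to 0.215). It also missed the threshold with library totals in edgeR (0.0556) and in DESeq2's Wald test (0.0686). Upwards, DLX6-AS1 was at 7.10, 5.41 and 6.58 CPM with TNF-α and at 8.80, 10.4 and 9.42 CPM with ruxolitinib (0.59 ± 0.14), and the groups did not overlap. FGD5-AS1, the highest member per kilobase, rose by 0.13 ± 0.04 (adjusted p = 0.00579), and the call for FLJ37453 (0.44) was lost without any 1 of TNF-α replicates 1 and 2 and ruxolitinib replicates 2 and 3 (0.0561 to 0.103).

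Both drugs together changed most of the members: 27 rose and 39 fell, 62.3% beside 54.8% of all tested genes (a rise in 25.5% against 25.5%, a fall in 36.8% against 29.3%). Scaled by library totals, 34 were higher and 32 lower. The median log2 change was -0.10 over the members and -0.03 over all genes. At least 2-fold changes were reached by 6 of 106 members upwards and 11 of 106 downwards, beside 632 (3.91%) and 1354 (8.39%) of 16146 tested genes. The members counted as rising, also those by 2-fold, include MSC-AS1 and DNM3OS. These are members through the libraries with both drugs, so the choice of members bears on these counts.

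TRG-AS1 (chr7:38341577-38378804, plus strand) fell most, to 6.32, 5.73 and 6.79 CPM, against 25.9 to 27.3 with TNF-α alone and 32.2 to 37.9 without TNF-α. The log2 change against TNF-α was -2.06 ± 0.10 (edgeR adjusted p = 1.27e-26). The V segment gene TRGV4 that it contains fell by 1.47 on the log2 scale (SE 0.25), and the 2 share no exon base. TNFRSF14-AS1 was at 24.0, 22.8 and 22.3 CPM with TNF-α and at 6.60, 7.48 and 4.68 CPM with both drugs, below the 13.0 to 15.8 CPM of untreated cells. Its log2 change was -1.88 ± 0.12 (adjusted p = 2.1e-21) beside -0.91 ± 0.05 for TNFRSF14, and the ratio fell by 0.98 (SE 0.12, limma adjusted p = 7.07e-09).

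LOXL1-AS1 fell to 28.2, 29.9 and 27.3 CPM with both drugs (-1.46 ± 0.06, edgeR adjusted p = 4.1e-31), and LOXL1 from 90.8, 91.1 and 87.6 CPM to 43.0, 42.2 and 38.9 CPM (-1.12 ± 0.05). HSPC324, opposite EGFL7, a secreted endothelial factor gene, fell by 1.22 on the log2 scale (SE 0.16), SH3PXD2A-AS1 from 18.3, 20.3 and 20.2 CPM to 9.73, 7.81 and 8.91 CPM, and AP001625.2, inside the sugar-phosphate transporter gene SLC37A1, by 1.04 on the log2 scale (SE 0.11). In these 3 pairs the partner fell less, by 0.33 (SE 0.04), 0.28 (SE 0.05) and 0.50 (SE 0.03). None of the 3 shares an exon base with its partner. LINC01426, which has no partner and is named after its values were seen, went from 29.9, 27.9 and 30.7 CPM to 15.2, 14.2 and 13.8 CPM (-1.03).

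Upwards, AC137932.1 (chr16:89296128-89298317, plus strand) changed most with both drugs. It lies inside ANKRD11, a chromatin coregulator gene, and shares no exon base with it. The member was at 8.41, 6.55 and 5.71 CPM with TNF-α, 8.55, 6.66 and 8.96 with MCL, 7.53, 7.66 and 9.59 with ruxolitinib, and 26.5, 25.2 and 21.9 with both. The single-drug groups overlapped TNF-α and their changes did not pass (0.23 ± 0.14 and 0.27 ± 0.14), while that with both drugs was 1.83 ± 0.12 (edgeR adjusted p = 4.4e-20). ANKRD11 rose from 291, 288 and 285 CPM to 486, 495 and 489 CPM (0.77 ± 0.03), and the ratio rose by 1.06 ± 0.15.

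DNM3OS reached 13.3, 12.8 and 11.2 CPM with both drugs, above every library of the other groups. Against TNF-α the log2 difference was 1.5 ± 0.14, that of DNM3 was -0.33 ± 0.10 and that of the ratio 1.81 ± 0.17. Because the libraries with both drugs brought DNM3OS over the count threshold, these values are a description. AL138724.1 reached 22.8, 22.3 and 22.2 CPM (1.42 ± 0.12) while NUP153 fell by 0.35 (SE 0.04), and the ratio rose by 1.76 ± 0.15.

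FBXL19-AS1 rose from 6.57, 5.95 and 5.59 CPM to 15.5, 14.8 and 15.5 CPM with both drugs (1.34 ± 0.13), where FBXL19 rose by 0.25 ± 0.04. AC091729.3 rose by 1.14 ± 0.13 and its partner ZFAND2A by 1.56 ± 0.09. NRAV, an RNA known as a negative regulator of antiviral responses, rose by 0.78 ± 0.14 beside 0.06 ± 0.04 for the dynein light chain gene DYNLL1, whose change did not pass.

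**Figure D3:**
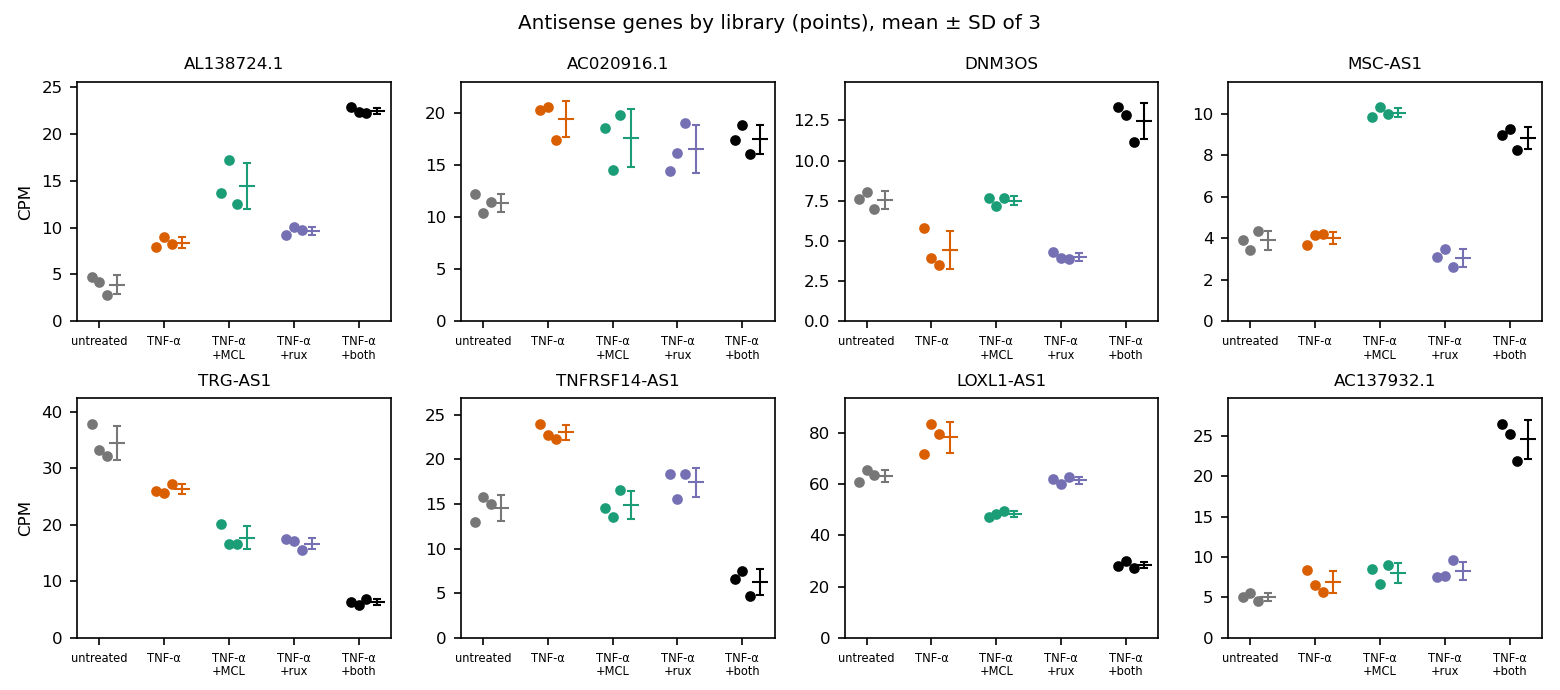
CPM (vertical axes, from 0) of 8 antisense genes in the 5 groups (horizontal axes); points are libraries and bars the mean ± SD of 3. TRG-AS1, TNFRSF14-AS1 and LOXL1-AS1 are lowest under both drugs, and AL138724.1, DNM3OS and AC137932.1 are highest there.

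Partners with a part in blood development were among the pairs. GATA2-AS1 (chr3:128489212-128502348, plus strand) starts 3973 bases from the start of GATA2, a transcription factor of blood stem cells, with no exon base shared. GATA2-AS1 was at 37.6, 32.6 and 32.4 CPM with TNF-α, 27.7, 25.3 and 28.2 with MCL, 32.0, 33.2 and 34.9 with ruxolitinib and 19.9, 22.5 and 18.4 with both. The ruxolitinib group overlapped TNF-α alone and the other 2 lay below it. The log2 changes were -0.34 ± 0.07 with MCL (edgeR adjusted p = 0.000322), -0.03 ± 0.07 with ruxolitinib (0.83) and -0.75 ± 0.08 with both (4.51e-13). GATA2 went from 553, 553 and 547 CPM to 344, 359 and 354 with MCL, 522, 537 and 517 with ruxolitinib and 120, 137 and 127 with both, so the member rose relative to its partner by 0.31 ± 0.09 with MCL (limma adjusted p = 0.0123) and by 1.35 ± 0.09 with both.

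AL135960.1, inside TAL1 and sharing 20.9% of its exon bases, fell to 10.6, 9.88 and 10.9 CPM with both drugs from 20.6, 21.6 and 21.3 CPM. Its log2 change of -1.02 ± 0.10 was close to the -1.08 ± 0.03 of TAL1, and the ratio changed by 0.07 ± 0.11 (limma adjusted p = 0.656). AL356275.2 overlaps the start of CD34, the stem and progenitor cell marker, and was at 6.64, 6.43 and 7.14 CPM with TNF-α and at 6.55, 6.55 and 5.18 CPM with both drugs, a change of -0.15 ± 0.15 that did not pass. CD34 itself fell by 0.35 (SE 0.03). MEF2C-AS1, named after its values were seen, rose by 0.42 ± 0.13 with both drugs while the transcription factor gene MEF2C fell by 0.15 (SE 0.03), and the ratio rose by 0.57 ± 0.14 (limma adjusted p = 0.00122).

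SENCR, named after its values were seen, lies inside FLI1, an ETS transcription factor gene of megakaryocytes and endothelium. It was at 14.4, 15.9 and 16 CPM with TNF-α and at 15.9, 18.2 and 14.4 CPM with both drugs, with a change of 0.06 ± 0.10 that did not pass (edgeR adjusted p = 0.6). FLI1 fell by 0.56 (SE 0.04), and the ratio rose by 0.62 ± 0.11.

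The miRNA hosts did not move together. AC004687.1, whose exon spans MIR142 of blood cells, was at 51.7, 47.3 and 44.7 CPM with TNF-α and at 21.8, 20.4 and 22.9 CPM with both drugs, a log2 change of -1.14 ± 0.13 (edgeR adjusted p = 4.74e-06). It lies inside TSPOAP1-AS1, itself a member, which fell by 1.13 (SE 0.12) in the same comparison, and they share no exon base. The smaller calls for AC004687.1 with TNF-α (0.43 ± 0.12) and with MCL (-0.37 ± 0.12) were lost without single libraries, with TNF-α at adjusted p = 0.0592 to 0.0731 without untreated replicate 1 or 2 or TNF-α replicate 1, and with MCL in 11 of 20 alternatives, among them without untreated replicate 2, TNF-α replicate 1 or 2, MCL replicate 1 or 2, ruxolitinib replicate 2 or any both-drug replicate (0.0542 to 0.123). AL034397.3, the MIR223 host, was at 21.1 to 22.8 CPM with TNF-α and 22.5 to 25.4 with both drugs, and passed in none of the 4 comparisons. DLEU2 was at 16, 19.6 and 18.4 CPM with TNF-α and 16.1, 19.1 and 16.5 with both drugs (-0.06 ± 0.09, adjusted p = 0.61); its call with MCL (-0.25 ± 0.10, adjusted p = 0.0444) was lost in 14 of 20 alternatives, among them without any untreated or MCL replicate, TNF-α replicate 2 or 3 or ruxolitinib replicate 1 or 2 (0.0506 to 0.258). GABPB1-AS1 (MIR4712) changed by -0.27 with both drugs (adjusted p = 0.00087), and ENTPD1-AS1 (MIR3157) by -0.06 (0.65).

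Among studied antisense RNAs, FGD5-AS1 was at 178, 183 and 180 CPM with TNF-α and at 225, 214 and 216 CPM with both drugs (0.27 ± 0.04, edgeR adjusted p = 1.49e-09). FGD5, a guanine nucleotide exchange factor gene, fell by 0.38 (SE 0.04), and the ratio rose by 0.65 ± 0.04. KCNQ1OT1 changed by -0.43 ± 0.18 (adjusted p = 0.063) and NNT-AS1 by 0.19 ± 0.13 (0.217) with both drugs, and neither passed in any of the 4 comparisons. KCNQ1OT1 did pass with both drugs with no filter on low counts (adjusted p = 0.000228) and without TNF-α replicate 3 (0.0447), MCL replicate 2 (0.0117) or ruxolitinib replicate 1 or 2 (0.0343 and 0.00145). It passed with MCL with no such filter (0.0202) and without ruxolitinib replicate 2 (0.0271). NNT-AS1 passed with both drugs without TNF-α replicate 2 (0.00207, at 0.47 on the log2 scale). TMPO-AS1, opposite the lamina protein gene TMPO, changed by -0.31 ± 0.11 with MCL and -0.29 ± 0.11 with both drugs. Those calls were lost without MCL replicate 1 or 2 or TNF-α replicate 1 or 3 (0.077 to 0.17), and without TNF-α replicate 3 or both-drug replicate 3 (0.0579 and 0.0775). In edgeR the call with MCL was also lost with no filter on low counts (0.067), and that with both drugs with library totals (0.0785).

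Members and partners changed alike more often than in opposite ways. With TNF-α both genes of a pair passed in the same direction in 14 of 101 pairs and in opposite directions in 0; the member alone passed in 16, the partner alone in 16 and neither in 55. The same counts were 16, 1, 10, 23 and 51 with MCL, 11, 2, 7, 14 and 67 with ruxolitinib, and 39, 8, 17, 20 and 17 with both drugs. The other 4428 opposite-strand pairs of tested genes also went mostly alike: 223 in the same and 53 in opposite directions with TNF-α, 220 and 58 with MCL, 60 and 15 with ruxolitinib, and 933 and 329 with both drugs. Across the 101 pairs the log2 changes of member and partner had a Pearson r of 0.49 (Spearman rho 0.56) in the TNF-α comparison, 0.60 (0.52) in that of MCL, 0.53 (0.43) in that of ruxolitinib and 0.55 (0.50) in that of the combination. Those other pairs gave a Pearson r of 0.29, 0.28, 0.13 and 0.40 (Spearman rho 0.24, 0.26, 0.14 and 0.38). Each member pair holds a gene with a mean of at least 100 counts, while the other pairs needed only to pass the filter on low counts. Changes of low-count genes are noisier, so member pairs and other pairs are not matched in depth, here and in the ratio shares below. The counts and correlations are descriptions across genes of the same libraries, and reads of a pair can mix. The 71 member pairs that share exon bases gave a Pearson r of 0.56, 0.68, 0.44 and 0.60 and the 30 that share none 0.35, 0.40, 0.63 and 0.48. By Spearman rho the values lay closer together, at 0.56, 0.54, 0.43 and 0.50 against 0.54, 0.48, 0.52 and 0.45.

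**Figure D4:**
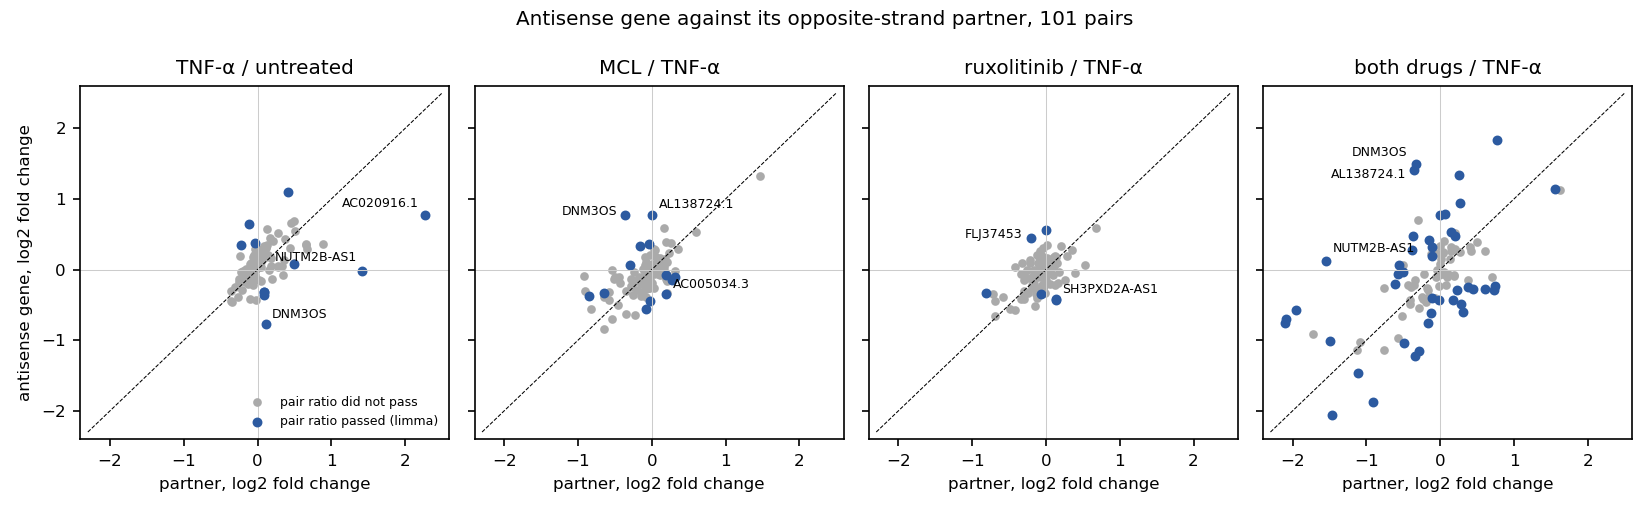
Log2 fold change of the antisense gene (vertical axis) against its partner (horizontal axis) for 101 pairs in 4 comparisons, blue where the ratio of the pair passed limma's test; the dashed line marks equal change. With both drugs DNM3OS and AL138724.1 lie above 1 while their partners lie below 0.

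The ratio of member to partner passed limma's test in 11 of 101 pairs with TNF-α (10.9%, beside 11.4% of all 4580 opposite-strand pairs), 13 with MCL (12.9% against 12.1%), 6 with ruxolitinib (5.94% against 5.57%) and 43 with both drugs (42.6% against 36.6%). With both drugs the member rose relative to its partner in 23 pairs and fell in 20. The counts moved with single libraries: 7 with TNF-α without untreated replicate 1, 6 with MCL without TNF-α replicate 2, and 3 with ruxolitinib without TNF-α replicate 3. In the 8 pairs whose genes passed in opposite directions with both drugs, the member rose in DNM3OS, AL138724.1, FLJ37453, FGD5-AS1, MEF2C-AS1 and AL118506.1 and fell in GABPB1-AS1 and TMCC1-AS1. TMCC1-AS1 and AL118506.1 are divergent and do not overlap their partners TMCC1 and TPD52L2. EPHA1-AS1 differed in size from its partner: the member was at 8.11, 9.39 and 12.1 CPM with both drugs against 14.9, 15.3 and 13.9 with TNF-α (-0.57 ± 0.12), and the receptor tyrosine kinase gene EPHA1 fell by 1.95 (SE 0.07), so the ratio rose by 1.36 ± 0.13. AC064807.1 and AC018647.2 changed by -0.29 ± 0.16 and -0.24 ± 0.13 with both drugs without passing, while PCMTD1 and HERPUD2 rose by 0.73 ± 0.06 and 0.74 ± 0.07, and the ratios fell by 1.00 (SE 0.18) and 0.98 (SE 0.14). NUTM2B-AS1 had a ratio rise of 1.51 ± 0.40 with both drugs, from a partner, NUTM2B, that was at 0.348 to 1.5 CPM in these 2 groups.

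**Figure D5:**
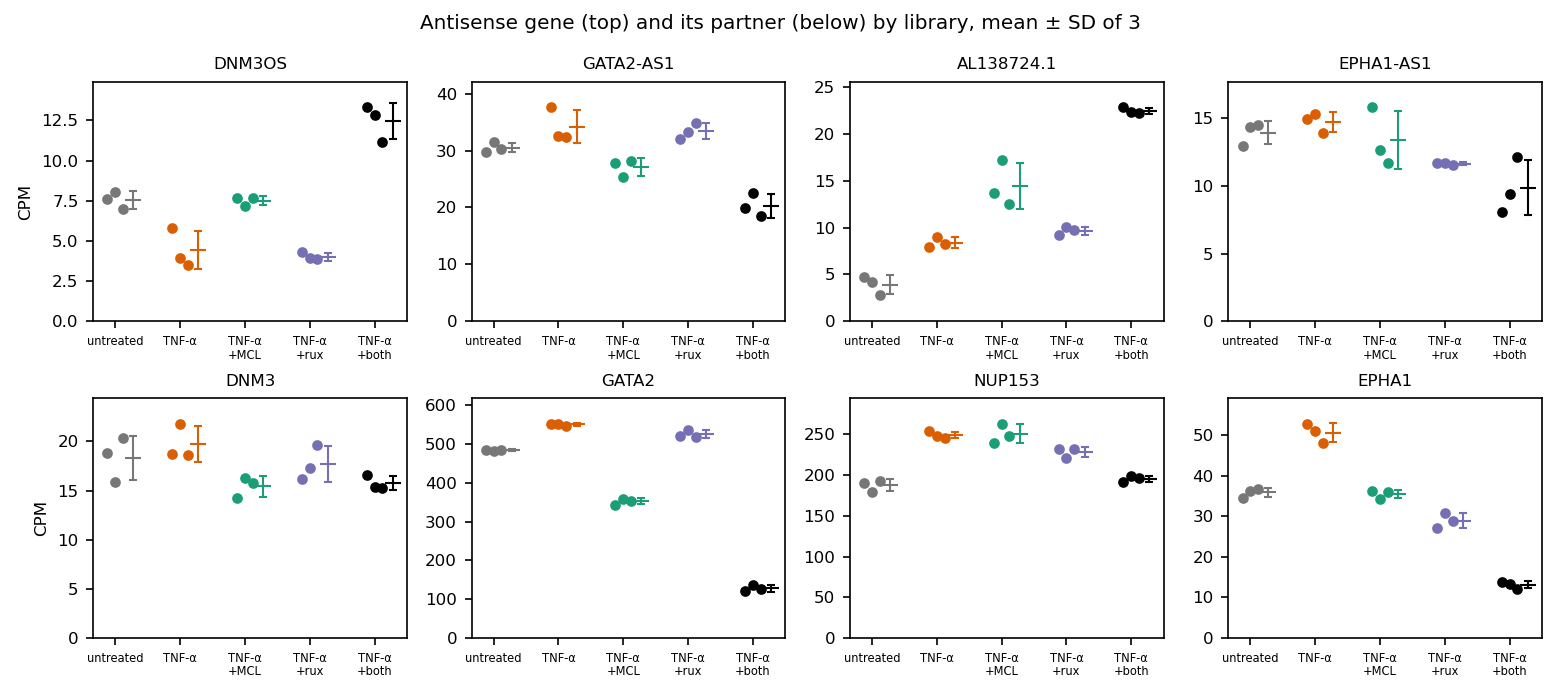
CPM (vertical axes, from 0) of 4 antisense genes (top) and their partners (below) in the 5 groups (horizontal axes); points are libraries and bars the mean ± SD of 3. DNM3OS and AL138724.1 are highest under both drugs where DNM3 and NUP153 are not, and GATA2 and EPHA1 fall further than GATA2-AS1 and EPHA1-AS1.

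Set directly against each other at doses that are not given, MCL and ruxolitinib differed in 28 members: 14 were higher and 14 lower with MCL, 26.4% beside 27.5% of all genes. MSC-AS1 differed by 1.71 ± 0.16, a description for the reason given above. Higher with MCL were AL365181.3 (0.96 ± 0.07), DNM3OS (0.90 ± 0.16), AL138724.1 (0.58 ± 0.12) and TMCC1-AS1 (0.53 ± 0.11). STARD4-AS1 was at 7.25, 4.83 and 5.19 CPM with MCL and 10.6, 8.34 and 9.77 CPM with ruxolitinib (-0.72 ± 0.15, edgeR adjusted p = 9.33e-05). TSPOAP1-AS1 (-0.63 ± 0.12), AC073957.3 (-0.52 ± 0.14), AC004687.1 (-0.46 ± 0.12) and LOXL1-AS1 (-0.35 ± 0.06) were lower with MCL too. AL356275.2 (-0.45) lost its call without MCL replicate 2 or 3 or ruxolitinib replicate 1 (0.0664 to 0.14).

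The effect of both drugs was not the sum of the single effects for 26 members, 14 above and 12 below the sum, 24.5% beside 25% of all genes. This non-additive value takes the log2 changes of the 2 single drugs, added up, from that of the combination. It was 1.33 ± 0.19 for AC137932.1 (edgeR adjusted p = 5.08e-08), where neither single-drug change passed, and -0.85 ± 0.16 for TNFRSF14-AS1 (2.93e-05), where both single drugs already lowered the gene. Without TNF-α replicate 1, 8 members were above the sum in place of 14.

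No partner of a member was in the lists of 33 NF-kB and TNF response genes, 39 interferon and antigen presentation genes, 34 JAK-STAT and cytokine receptor genes or 35 oxidative and proteotoxic stress genes. The lists are short, and there were only 100 partners among 16146 tested genes, so this absence says nothing about the members. The lists also leave out partners named above, such as TNFRSF14 and ZFAND2A.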

How the data were processed

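The deposited table holds raw counts, which the authors made as whole numbers of reads per gene, for 58735 genes and 15 libraries. Per the submitters' processing notes, the tools were DESeq2 1.16.1, featureCounts 1.5.0-p3 and HISAT2 2.0.5, named without roles, and the genome builds hg38 and mm10. The control columns were read as untreated cells. Every gene matched GENCODE 29 of hg38 in start, end, strand and chromosome (58735 of 58735), which gave exons and small RNA genes. Promoter windows and miRNA sequences are RefSeq's (GRCh38.p14). No strand setting or rule for reads that match several genes is recorded in these sources.

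In R 4.3.3, edgeR 4.0.16 was run on all 15 libraries with TMM scaling, filterByExpr at a minimum count of 10 (16146 genes left), and 1 coefficient per group, which left 10 residual degrees of freedom. Its robust quasi-likelihood F-test gave p-values, adjusted after Benjamini and Hochberg over those genes. The biological coefficient of variation was 0.0404. An SE is the absolute log2 change over the square root of F. CPM used TMM factors, except for the cell markers, which were scaled by library totals. For each of 4580 opposite-strand pairs of tested genes, the per-library difference of log2 CPM (prior count 2) was tested with limma 3.58.1 and adjusted over all pairs. Within each group, no 2 libraries were copies of each other in a chi-square comparison. Libraries of different groups were not compared in this way.

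The genes named are, per comparison, up to 8 members with the highest and 8 with the lowest change that passed with libraries not overlapping, up to 4 each way for the non-additive effect and the pair ratio, the 6 highest per kilobase, a panel of studied antisense RNAs, and all their partners; others are said to be chosen after their values were seen. A gene that this rule chose is not reported here; it stays in the counts. The members, lists and tests were chosen with earlier results of these data known. On counts simulated for TNF-α against untreated (15745 genes), edgeR recovered 88%, 74%, 60% and 50% of genes changed 4-, 2-, 1.5- and 1.25-fold with 5 false calls, and the pair test 73.3% of 60 changed pairs with 4 false calls among 4388 pairs.

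Alternatives were DESeq2 1.42.0, DESeq2 size factors or library totals in edgeR, no filter on low counts, a member threshold of 200 counts, a replicate block, a prior count of 0.5, overlapping pairs only, pairs with at least 100 counts in both genes, and each library left out.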

Additional observations from a re-analysis of the deposited data

Results flagged for a closer look

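For 26 members (24.5%, beside 25% of all tested genes) MCL acted differently beside ruxolitinib than without it, by the test of that difference itself (edgeR, adjusted over all tested genes). The difference equals the non-additive value of the report. The 4 members named each way are those chosen by the rule for named genes. The difference was 1.33 ± 0.19 (log2, SE) for AC137932.1, 0.89 ± 0.21 for AC024224.2, 0.86 ± 0.22 for DNM3OS and 0.59 ± 0.18 for FBXL19-AS1, so MCL raised these more, or lowered them less, when ruxolitinib was there. For DNM3OS the libraries with both drugs brought the gene over the count threshold, so its value is a description. The difference was -1.01 for ZNF710-AS1 (SE 0.20), -0.87 for AP001625.2 (SE 0.15), -0.87 for AC004687.1 (SE 0.18) and -0.85 for TNFRSF14-AS1 (SE 0.16).

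ZNF710-AS1 was at 7.36, 9.19 and 8.14 CPM with TNF-α, 7.79, 7.97 and 7.35 with MCL, 7.95, 9.09 and 9.30 with ruxolitinib and 4.46, 3.93 and 3.84 with both drugs. Its partner ZNF710, a zinc finger gene, fell with each drug alone (-0.50 ± 0.05 and -0.33 ± 0.05) and with both (-1.49 ± 0.05). AC024224.2 was at 8.02, 6.91 and 5.96 CPM with TNF-α, 6.02, 4.83 and 6.12 with MCL, 7.40, 5.60 and 7.02 with ruxolitinib and 11.6, 9.23 and 9.46 with both, and it has 40.5% of its exon bases on opposite exons, opposite the lectin gene CLEC12B. The value for FBXL19-AS1 missed the threshold without TNF-α replicate 1 (adjusted p = 0.0513) or MCL replicate 1 (0.0512).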

How the results depend on the processing

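With a member threshold of 200 counts, fewer genes were members: 7 fell with TNF-α, 2 rose and 13 fell with MCL, 1 rose with ruxolitinib, 10 rose and 23 fell with both drugs, 7 were higher and 8 lower with MCL than with ruxolitinib, and 6 lay above the sum of the single effects. With at least 100 counts in both genes, 10 pair ratios passed with ruxolitinib in place of 6; the cause was not tested. Leaving out single libraries gave 8 to 13 members above the sum, and 7 to 13 pair ratios with TNF-α, 6 to 15 with MCL and 3 to 8 with ruxolitinib. Other counts stayed within 1.5 times under the alternatives run. Of 125 named results that passed, 90 kept direction and call in every alternative, 35 lost the call in at least 1 and 0 reversed; 5 of 30 that had not passed did so in at least 1. The lowest group mean of a member was 50.7 counts (MSC-AS1 with ruxolitinib), a depth at which small changes cannot be seen.

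Libraries with the same replicate number did not deviate together (r from -0.0483 to 0.0483 over 30 pairs, 5 of 15 libraries closest to their own number), so the numbers were not taken as pairing. With the replicate number as a block, 18 members rose and 12 fell with TNF-α, and no count moved by over 1.5 times; among named genes, 1 call changed, that of KCNQ1OT1 with both drugs, which passed (-0.44, adjusted p = 0.00681).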
